A study of Mus musculus with 21 samples.

Results

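The PRDM genes other than Prdm9 were described from their RNA in germ cell preparations of juvenile mouse testes. The 9 members were Prdm1, Prdm2, Prdm4, Prdm8, Prdm10, Prdm11, Prdm14, Prdm15 and Prdm16, taken by symbol from an RNA-seq table of 37620 genes, and each was present once. The table held 12 libraries from C57BL/6J mice (B6, a common inbred strain) at 12 days post-partum, when the first spermatocytes are in early meiotic prophase. The cells were released from testes with collagenase and trypsin and enriched for germ cells, and the labels call them spermatocytes. Each of the 4 sample numbers, 186wt, 343wt, 444wt and 456wt as labelled, was given to 3 libraries, and all belonged to the same strain, age and condition, with no treatment named. The study describes 4 replicates, but nothing says whether the 3 libraries of a number share an RNA preparation, so that p-values measure the spread between libraries, which may be technical.

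PRDM proteins carry a PR domain, a relative of the SET domain of histone methyltransferases, usually together with C2H2 zinc fingers that can bind DNA. Some members, PRDM9 among them, methylate histones themselves, whereas others act as transcription factors that recruit enzymes such as G9a (Ehmt2), PRMT5 or histone deacetylases. PRDM9 marks the sites of meiotic recombination, and Prdm1 and Prdm14 are needed earlier, when primordial germ cells are specified in the embryo.

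The members fell into 3 ranges of RNA level, given in FPKM (fragments per kilobase of transcript, scaled to the size of the library, a level per length that can be compared between genes). Prdm2 and Prdm4 were the highest, at 29.6 ± 0.985 and 26.8 ± 3.04 FPKM (SD, n = 4 sample numbers, each the mean of its 3 libraries). Prdm16, Prdm11, Prdm15 and Prdm10 lay between 5.80 and 6.85 FPKM. Prdm1 stood at 0.453 FPKM, and Prdm8 and Prdm14 were below 0.1 FPKM. For scale, Prdm9 itself was at 13.2 ± 1.24 FPKM in the same libraries (SD, n = 4), below Prdm2 and Prdm4 and above the other 7 members.

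Of the 9 members, 7 averaged at least 0.1 FPKM, against 55.3% of all genes and 74.2% of protein-coding genes. At least 1 FPKM was reached by 6 members, against 38.1% of all genes and 58.7% of protein-coding genes. In the top quartile of expressed genes, above 21.1 FPKM, there were 2 of the 9 members, against 13.8% of all genes and 22.8% of protein-coding genes. Summed over the 9 members the level was 82.4 ± 6.92 FPKM (SD, n = 4), of which Prdm2 and Prdm4 made up 68.4%.

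**Figure D1:**
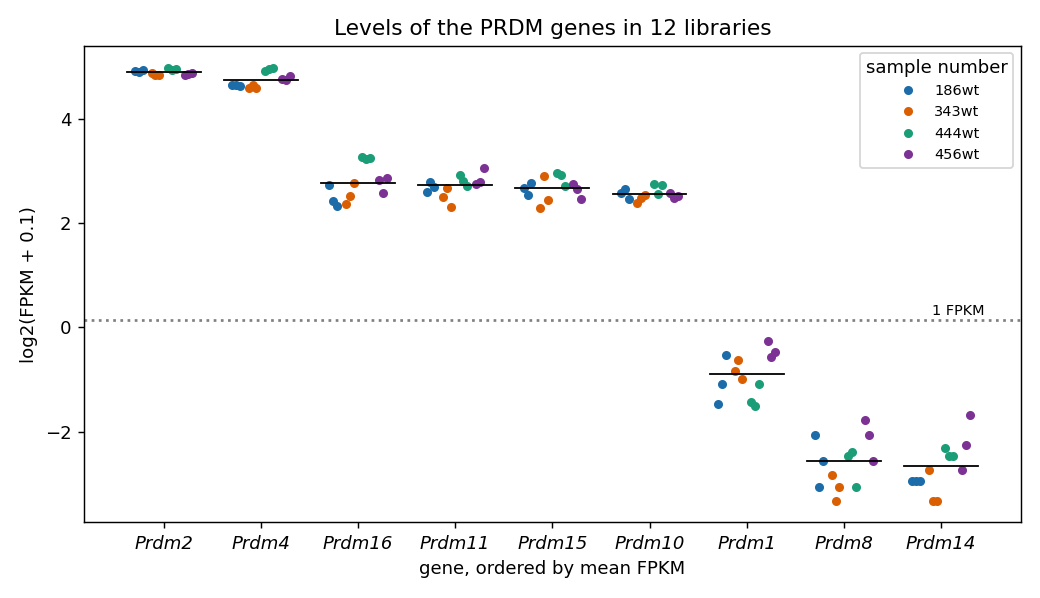
Level of each PRDM gene, as log2(FPKM + 0.1) on the vertical axis, in the 12 libraries (points, coloured by sample number), with genes ordered by mean FPKM. Prdm2 and Prdm4 lie highest, 4 genes between 5.80 and 6.85 FPKM form the middle, and Prdm1, Prdm8 and Prdm14 lie lowest.

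Prdm2 (RIZ), described as a tumour suppressor with histone H3K9 methyltransferase activity, was the steadiest member. Its level was 29.9 FPKM in 186wt, 28.7 in 343wt, 30.8 in 444wt and 28.8 in 456wt, a coefficient of variation of 3.33%. Its 12 libraries ran from 28.41 through a median of 29.3 to 31.16 FPKM, and 83.6% of protein-coding genes had a lower mean.

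Prdm4, whose product binds the arginine methyltransferase PRMT5, was at 24.8 FPKM in 186wt, 24.2 in 343wt, 30.8 in 444wt and 27.3 in 456wt. Its 3 libraries of 444wt (30.14, 31.00 and 31.39 FPKM) all lay above the other 9, which ran from 23.80 to 28.22 FPKM. Of protein-coding genes, 81.9% had a lower mean. Prdm2 was higher than Prdm4 in 3 of 4 numbers, and the library ranges of these 2 genes overlapped (mean difference 0.15 ± 0.13 log2, SD, n = 4, exact two-sided sign-flip permutation test p = 0.25, adjusted p = 0.4 over the 8 neighbouring pairs).

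Prdm16, known for its part in brown fat and in blood stem cells, was at 5.55 FPKM in 186wt, 5.80 in 343wt, 9.41 in 444wt and 6.66 in 456wt, with a mean of 6.85 ± 1.77 (SD, n = 4). By library it read 6.52, 5.23 and 4.90 FPKM in 186wt, 5.03, 5.64 and 6.73 in 343wt, 9.55, 9.27 and 9.40 in 444wt, and 6.96, 5.82 and 7.19 in 456wt. The 444wt libraries did not overlap with any of the others, whereas those of the other 3 numbers overlapped among themselves.

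Prdm11, a member of the family studied as a tumour suppressor in lymphoma, was at 6.37 FPKM in 186wt, 5.54 in 343wt, 6.96 in 444wt and 7.21 in 456wt (mean 6.52 ± 0.743, SD, n = 4). Prdm15, a regulator of pluripotent cells, was at 6.20, 5.82, 7.22 and 6.05 FPKM in the same order of numbers (mean 6.32 ± 0.618). Prdm10, a broadly expressed transcription factor, was at 5.81, 5.44, 6.31 and 5.64 FPKM (mean 5.80 ± 0.372). Every library of 444wt lay above those of 343wt for Prdm11 and Prdm10, and every library of 456wt did so for Prdm11. All other pairs of numbers overlapped for these 3 genes.

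Among these 4 middle genes the order did not hold from number to number. Prdm16 was above Prdm11 in 2 of 4 numbers and Prdm11 above Prdm15 in 2 of 4. Prdm15 was above Prdm10 in 4 of 4 numbers, by 0.12 ± 0.05 log2 (SD, n = 4), although their library ranges overlapped. The smallest p this test allows with 4 numbers is 0.13, rounded, so that no pair could pass 0.05. The library ranges were apart for 3 of the 8 neighbouring pairs, namely Prdm4 over Prdm16 (1.98 ± 0.19 log2), Prdm10 over Prdm1 (3.45 ± 0.45 log2) and Prdm1 over Prdm8 (1.68 ± 0.41 log2), each the same way in 4 of 4 numbers.

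Prdm1 (BLIMP1), which represses the somatic programme in primordial germ cells and drives plasma cell differentiation, was at 0.407 FPKM in 186wt, 0.470 in 343wt, 0.297 in 444wt and 0.640 in 456wt. Its libraries ran from 0.25 through a median of 0.43 to 0.73 FPKM, with 0.57 to 0.73 in 456wt and 0.25 to 0.37 in 444wt. In bulk RNA, fewer cells of a type and less RNA per cell cannot be told apart.

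Prdm14, the partner of Prdm1 in germ cell specification and a regulator of pluripotency, averaged 0.0642 ± 0.0498 FPKM (SD, n = 4) and was listed at 0 in 2 libraries. Counted back from the steps between low values, a library held 13 to 18.15 M fragments (M for mega). At the median depth, 1 fragment per kb of transcript length, less 65 bases, was worth 0.0663 FPKM. The Prdm14 values then stood for about 1, 1 and 1 fragments in the 186wt libraries, 2, 0 and 0 in 343wt, 4, 3 and 3 in 444wt, and 2, 4 and 8 in 456wt. These make 3 fragments in 186wt (95% Poisson interval 0.619 to 8.77), 2 in 343wt (0.242 to 7.22), 10 in 444wt (4.80 to 18.4) and 14 in 456wt (7.65 to 23.5). The intervals of 343wt and 456wt did not overlap, but they cover counting error only, and 8 of the 14 fragments of 456wt came from a single library.

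Prdm8, which acts with Bhlhe22 in the nervous system, averaged 0.0733 ± 0.0467 FPKM (SD, n = 4) and was listed at 0 in 1 library. Its estimated fragments were 10 in 186wt (95% Poisson interval 4.80 to 18.4), 3 in 343wt (0.619 to 8.77), 9 in 444wt (4.12 to 17.1) and 18 in 456wt (10.7 to 28.4), 40 in all. As for Prdm14, the intervals of 343wt and 456wt did not overlap, and they cover counting error only. Prdm8 and Prdm14 could not be placed in order (Prdm8 higher in 3 of 4 numbers, mean difference 0.09 ± 0.26 log2). Of the 9 members, Prdm8 alone shared exon bases (684) with another annotated gene, a pseudogene on the opposite strand at 0.02 FPKM, and the strand setting of the quantification is not given in the sources used here.

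**Figure D2:**
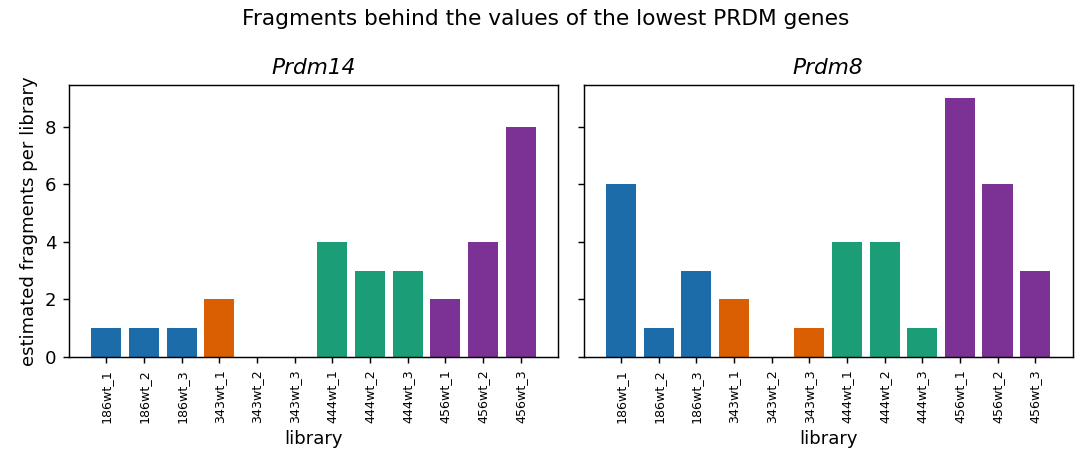
Estimated number of fragments (bars, vertical axis from 0) behind the values of Prdm8 and Prdm14 in each of the 12 libraries on the horizontal axis. No library of Prdm14 holds more than 8 fragments and none of Prdm8 more than 9.

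The members differed in build as well as in level. In the annotation of the build used for the table (NCBI build 37, GENCODE M1), Prdm16 spanned 320749 bases of chromosome 4 (153690234 to 154010982, minus strand) with 16 transcripts, whereas Prdm14 lay on chromosome 1 (13103538 to 13117244, minus strand) with 1. Prdm2 lay on chromosome 4 (142697294 to 142802898, minus strand) and Prdm4 on chromosome 10 (85354715 to 85379887, minus strand), the chromosome of Prdm1 too (44156983 to 44248307, minus strand). The others were Prdm8 on chromosome 5 (98609888 to 98616467, plus strand), Prdm10 on chromosome 9 (31088123 to 31186128, plus strand), Prdm11 on chromosome 2 (92805308 to 92886324, minus strand) and Prdm15 on chromosome 16 (98013074 to 98073457, minus strand). In the longest annotated proteins, a strict C2H2 pattern (C, 2 to 4 residues, C, 12 residues, H, 3 to 5 residues, H) was matched 16 times in Prdm15, 9 in Prdm10, 8 in Prdm16, 6 in Prdm2 and in Prdm4, 5 in Prdm14, 4 in Prdm1, 2 in Prdm8 and 0 in Prdm11, against 12 in Prdm9. The study describes 12 tandem fingers in PRDM9 besides a separate first finger, and the 12 matches in Prdm9 include that separate finger (residues 394 to 415). The pattern thus misses fingers, and the counts of the members can be too low as well. The number of matches did not follow the level, since Prdm11 and Prdm15, with 0 and 16, stood next to each other in the order.

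**Figure D3:**
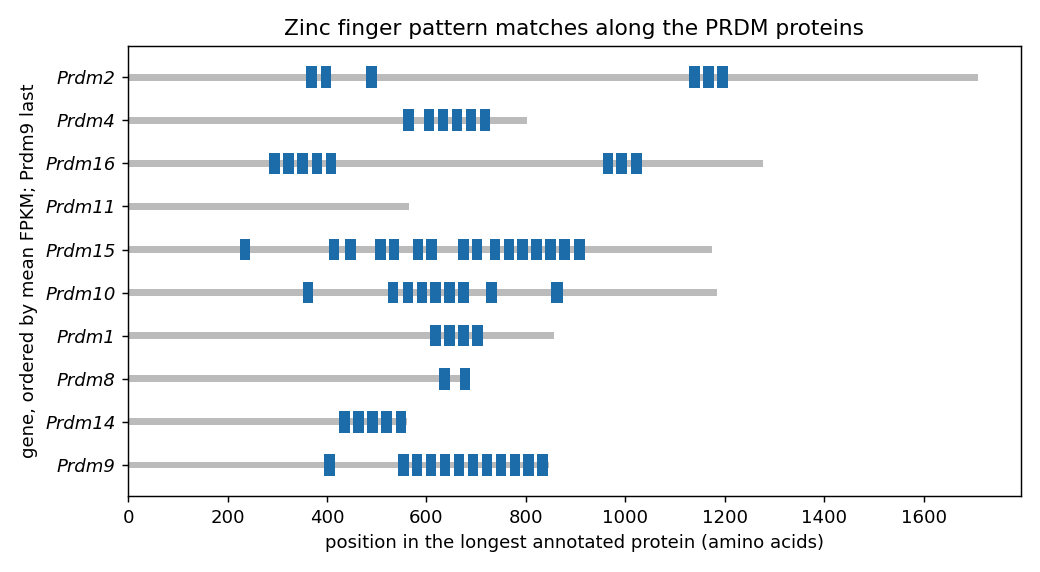
Positions of C2H2 pattern matches (marks) along the longest annotated protein of each PRDM gene, in amino acids on the horizontal axis, ordered by mean FPKM with Prdm9 last. The number of matches runs from 0 in Prdm11 to 16 in Prdm15, and fingers of another spacing are not marked.

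Promoter sequences of 300 bases, from 250 before to 50 after the start, were found for 7 of the 9 members (not for Prdm2 and Prdm14) in RefSeq's GRCm38.p6 annotation, a later build than that of the table. Over all 32851 promoters of this length the median number of CG dinucleotides was 7, and 94.6% held at least 1. The 2 promoters of Prdm4 held 32 and 40, Prdm11 32, Prdm16 24, Prdm15 23 and 34, Prdm1 20, Prdm10 12 and 4, and Prdm8 12. The highest and the lowest member with a promoter are shown, with every CG in capitals, as Prdm4 (chr10:85916680-85916979, minus strand) and Prdm8 (chr5:98180619-98180918, plus strand), both written 5′ to 3′ along the gene.
Prdm4: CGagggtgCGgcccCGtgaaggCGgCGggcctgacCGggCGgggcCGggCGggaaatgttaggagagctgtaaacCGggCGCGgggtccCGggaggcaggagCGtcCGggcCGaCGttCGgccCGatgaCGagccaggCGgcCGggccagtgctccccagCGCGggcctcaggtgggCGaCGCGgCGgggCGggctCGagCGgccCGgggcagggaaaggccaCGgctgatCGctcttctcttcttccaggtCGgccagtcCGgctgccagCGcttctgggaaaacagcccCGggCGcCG
Prdm8: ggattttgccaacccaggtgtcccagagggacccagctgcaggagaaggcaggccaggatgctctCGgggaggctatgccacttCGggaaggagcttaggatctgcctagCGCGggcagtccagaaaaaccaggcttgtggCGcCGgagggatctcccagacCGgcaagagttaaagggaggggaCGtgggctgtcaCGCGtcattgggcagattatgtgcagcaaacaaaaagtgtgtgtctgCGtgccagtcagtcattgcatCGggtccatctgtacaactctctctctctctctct
The Prdm4 promoter shown, the one of its 2 with more CG, held more than 96.1% of all promoters, the other more than 90.5%, and that of Prdm8 more than 60.4%. CG number followed the order of the levels only in part. The highest of the 7 members, Prdm4, held the most CG, and the lowest, Prdm8, held 12. Prdm1, with 20, held more than Prdm10, with 12 and 4, although it stood at 0.453 FPKM and Prdm10 at 5.80. A relation of CG number with level was not tested.

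The libraries allow the question of whether the PRDM genes varied between the sample numbers more than within them. Of the 7 members tested, 4 differed between the numbers (limma, moderated F test, adjusted p under 0.05), against 58.2% of the 20795 genes tested, so that the share is close to this background. That background holds many genes lower than most members. With genes of at least 1 FPKM tested alone, 4 of 6 members passed, and 11136 of 14348 genes. They were Prdm4 (largest difference between numbers 0.35 log2, limma adjusted p = 5.04e-06), Prdm16 (0.76 log2, limma adjusted p = 0.000971), Prdm2 (0.10 log2, limma adjusted p = 0.0136) and Prdm11 (0.38 log2, limma adjusted p = 0.0421). Differences are on the log2(FPKM + 0.1) scale, on which those of low genes are understated. Prdm1 spanned 0.91 log2 and did not pass (limma adjusted p = 0.0571), nor did Prdm10 (0.21 log2, limma adjusted p = 0.126) and Prdm15 (0.33 log2, limma adjusted p = 0.255).

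The call of Prdm4 held in 23 of 23 alternative settings, while those of Prdm16 and Prdm2 passed in 22 of 23 and were lost without 444wt (limma adjusted p = 0.281 and 0.154). With libraries rescaled to the same median Prdm2 passed with another pattern, highest in 186wt and lowest in 456wt (0.12 log2, limma adjusted p = 0.0112). Without 444wt, Prdm16 spanned 0.26 log2. The call of Prdm11 held in 8 of 23 settings (limma adjusted p = 0.0185 to 0.329), was lost without 343wt (0.329), 444wt (0.0579) or 456wt (0.0576), and was lost without any of 8 single libraries, replicates 1 and 3 of 186wt, 1 and 3 of 343wt, 1 and 2 of 444wt, and 2 and 3 of 456wt (limma adjusted p = 0.0508 to 0.149). Prdm1, not called here, passed in 5 of 22 settings, among them without 186wt (limma adjusted p = 0.0199) and without its replicate 1 (0.0416) or 3 (0.0208). Prdm15 passed in 1 of 23, without replicate 2 of 343wt (limma adjusted p = 0.0182), and Prdm10 in 0 of 23.

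**Figure D4:**
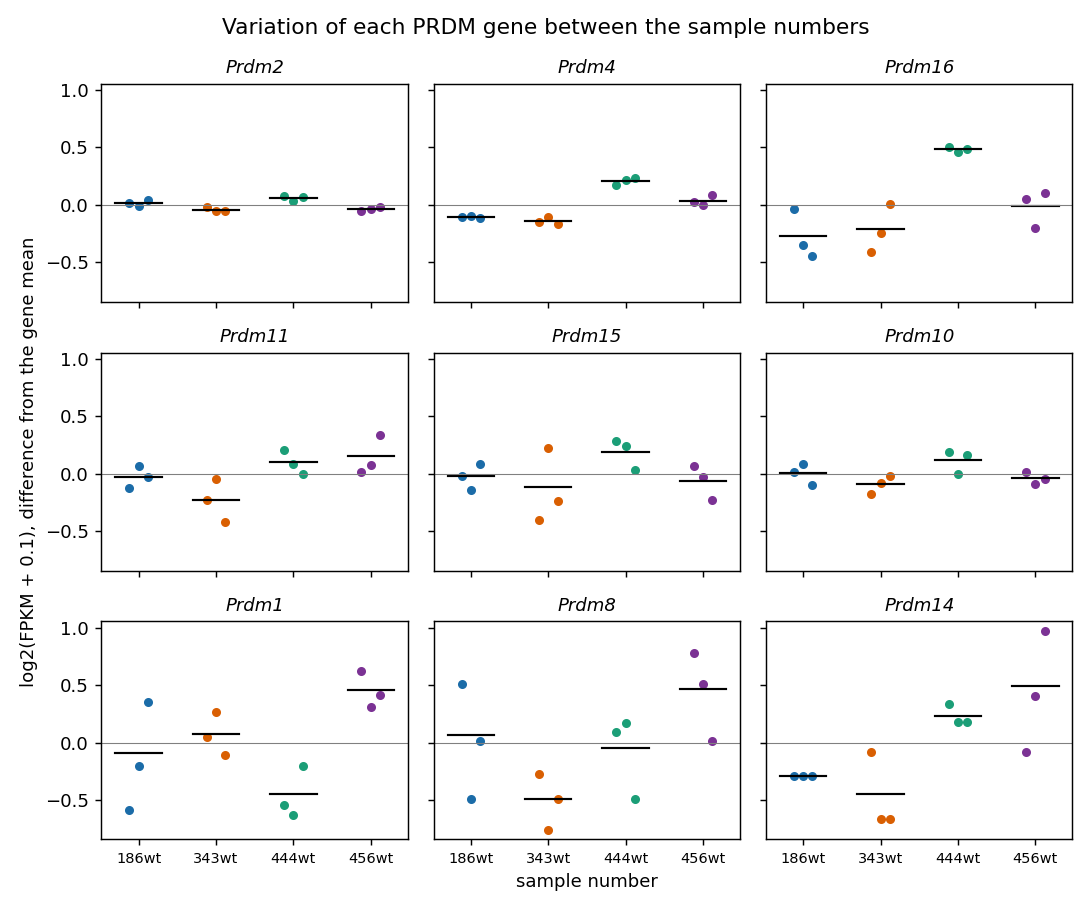
Difference of each library (points) from the mean of the gene on the log2(FPKM + 0.1) scale, by sample number, with the mean of each number as a bar. Prdm4 and Prdm16 stand highest in 444wt with no overlap with other numbers, and Prdm1 is lowest in 444wt and highest in 456wt.

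Between pairs of numbers, Prdm16 was higher in 444wt than in 186wt by 0.76 ± 0.13 log2 (SE, limma adjusted p = 0.00041) and than in 343wt by 0.70 ± 0.13 log2 (limma adjusted p = 0.000689). Prdm4 was higher in 444wt than in 343wt by 0.35 ± 0.03 log2 (SE, limma adjusted p = 2.16e-06) and than in 186wt by 0.32 ± 0.03 log2 (limma adjusted p = 5.84e-06). Prdm1 went the other way, and was higher in 456wt than in 444wt by 0.91 ± 0.26 log2 (SE, limma adjusted p = 0.0244). The differences given for Prdm16 and Prdm4 passed in 21 of 21 settings, and that of Prdm1 in 16 of 20. It was lost without replicate 1 or 2 of 444wt (limma adjusted p = 0.0681 and 0.0763) and without replicate 1 or 3 of 456wt (limma adjusted p = 0.082 and 0.0567).

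Over the 6 pairs of numbers, 14 of 42 tests of members passed, against 20.4% to 47.9% of all genes tested in a single pair. Of the 14, 11 were higher in the later number and 3 lower, where later means only the order of the labels. Of all genes, 9.93% to 30.4% passed as higher in the later number in a single pair. Of the 7 tested, 5 passed between 444wt and 343wt (Prdm2, Prdm4, Prdm10, Prdm11 and Prdm16), all higher in 444wt, against 47.9% of all genes tested in either direction and 30.4% higher in 444wt. Between 456wt and 444wt 4 passed, 3 of them higher in 444wt (Prdm2, Prdm4 and Prdm16), against 28.2% in either direction and 13.1% higher in 444wt. In each of the other pairs a smaller share of the members passed than of all genes.

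Between 444wt and 186wt 2 passed (Prdm4 and Prdm16), both higher in 444wt, against 42.4% in either direction and 26.1% higher in 444wt. Between 456wt and 343wt 2 passed (Prdm4 and Prdm11), both higher in 456wt, against 41.7% and 27.6%. Between 456wt and 186wt 1 passed (Prdm4), higher in 456wt, against 41.4% and 25.9%, and between 343wt and 186wt 0 passed by limma, with 1 at an unadjusted p under 0.05, against 20.4% and 9.93% higher in 343wt. Of the calls of Prdm10 and Prdm11 in these pairs, none held with libraries rescaled to the same median, and each was also lost without some single libraries. The call of Prdm4 between 456wt and 186wt was lost with that rescaling (0.08 log2, limma adjusted p = 0.0699), and so was that of Prdm2 between 444wt and 343wt (limma adjusted p = 0.987). The call of Prdm2 between 456wt and 444wt was lost without replicate 1 of 444wt (limma adjusted p = 0.0573) or of 456wt (limma adjusted p = 0.0607).

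Part of these differences lay in all genes. The median over the 14348 genes of at least 1 FPKM was higher in 444wt than in 343wt by 0.102 log2. With libraries rescaled to the same median, 11 of the 42 tests passed, against 14 without, 6 higher in the later number and 5 lower. The shares of all genes for the pairs are given above without this rescaling only. Relative to that median Prdm4 in 444wt stood 0.16 log2 and Prdm16 0.43 log2 above its own mean, whereas the difference of Prdm2 between 444wt and 343wt became -0.0011 log2.

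By number, of the 7 members of at least 0.1 FPKM, 5 (Prdm2, Prdm4, Prdm10, Prdm15 and Prdm16) were highest in 444wt and 2 (Prdm1 and Prdm11) in 456wt, against 36.3% and 27.3% of the 20795 genes of that level. Prdm8 and Prdm14, below it, were highest in 456wt as well. In 343wt, 5 of these 7 and also Prdm8 and Prdm14 were lowest, against 34.2% of those genes. Relative to the median of all genes, 4 of the 9 members were lowest in 343wt (Prdm4, Prdm8, Prdm11 and Prdm14) and 3 in 456wt (Prdm2, Prdm10 and Prdm15), and Prdm2 was highest in 186wt. Prdm11 did not pass between 456wt and 444wt (0.05 log2, limma adjusted p = 0.805) and was highest in 444wt without replicate 3 of 456wt, and of the 14 fragments of Prdm14 in 456wt that library held 8.

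The numbers also differed in the cell types whose markers they held. Summed markers of early meiosis were at 450.3, 364.2, 603.6 and 430.7 FPKM in 186wt, 343wt, 444wt and 456wt, led by Stra8, which licenses meiotic entry, at 102.7 FPKM. Of 11 found, 10 were highest in 444wt, against 36.3% of the genes of at least 0.1 FPKM. Summed markers of spermatogonia were at 584.1, 609.3, 805.4 and 728.4 FPKM, and all 8 passed the F test, against 58.2% of all genes tested. With genes of at least 1 FPKM tested alone, 11136 of 14348 passed. Spermatid markers were low, with 0 of 6 at a mean of 1 FPKM and Prm2 at 0 in all 12 libraries. They summed to 2.66 FPKM in 444wt, where Tnp1 was at 1.78, against 0.847 to 1.28 in the other numbers.

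Somatic cells were present in each number. Sertoli markers summed to 4434, 4571, 2572 and 2742 FPKM in the same order, led by Clu at 1844, with list medians of 104.3, 108.3, 73.7 and 65.9 FPKM. Of these markers, 10 of 10 found passed the F test by limma, against 58.2% of all genes tested and 11136 of 14348 genes of at least 1 FPKM. Leydig markers ranged from 16.1 in 444wt to 110.5 in 343wt and macrophage markers from 8.21 in 444wt to 33.8 in 343wt, led by Hsd3b1 (15.6 FPKM) and Lyz2. All 6 of each list were highest in 343wt, against 17.6% of the genes of at least 0.1 FPKM. Peritubular myoid markers ranged from 260.7 in 343wt to 1161 in 456wt and endothelial markers from 18.2 in 444wt to 42.8 in 456wt, led by Acta2 (472.7 FPKM) and Cdh5 (9.68 FPKM). All 6 and all 7 were highest in 456wt, against 27.3% of the genes of at least 0.1 FPKM. The 5 members highest in 444wt were so in the number highest in summed early meiosis, spermatogonia and spermatid markers. That number was also lowest in summed Sertoli, Leydig, macrophage and endothelial markers. Prdm1, Prdm8, Prdm11 and Prdm14 were highest in the number highest in myoid and endothelial ones. The part of these markers in the differences between members was not tested.

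**Figure D5:**
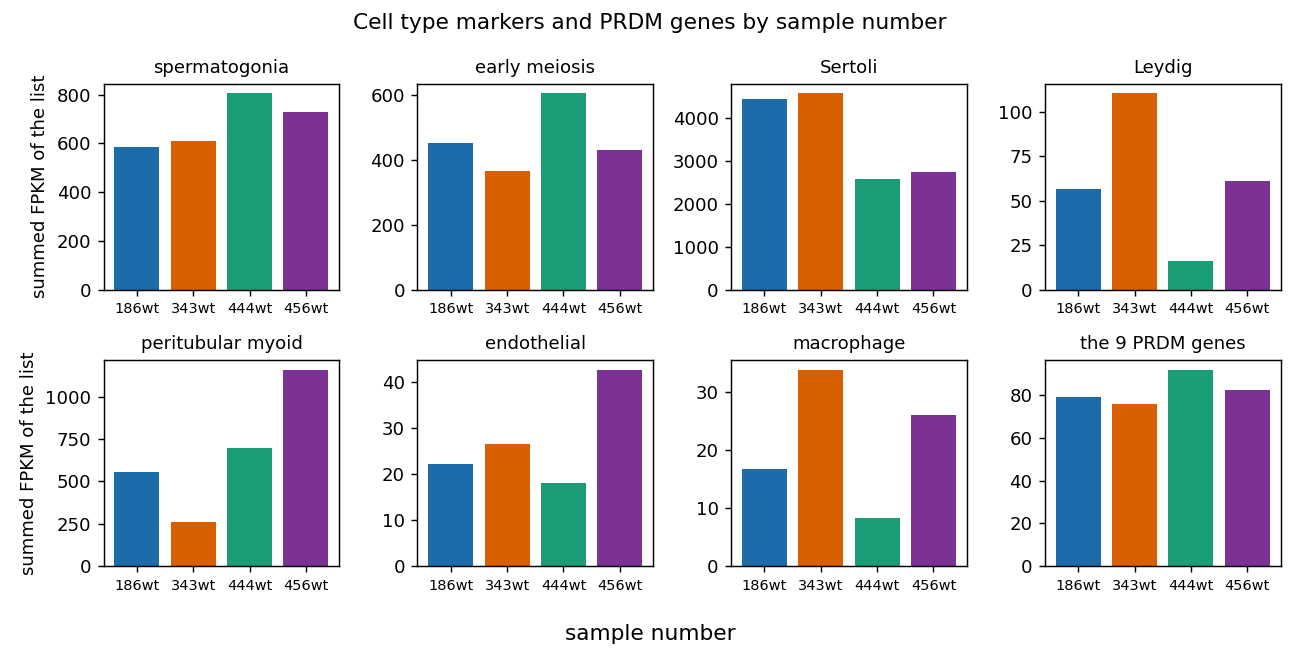
Summed FPKM (bars, vertical axes from 0, scaled per panel) of cell type marker lists and of the 9 PRDM genes in each sample number. The PRDM sum runs from 76.0 in 343wt to 92.0 FPKM in 444wt, a narrower span than that of the marker sums.

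Among other family members and relatives, Zfpm1 (FOG1) was at 26.6 ± 3.98 FPKM and Zfpm2 at 2.18 ± 0.306 (SD, n = 4). Mecom (Evi1 and Prdm3), the closest relative of Prdm16, was at 0.525 ± 0.228 FPKM. Prdm6, Prdm12 and Prdm13 were below 0.2 FPKM.

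The genes of partners that PRDM proteins recruit had a higher median level than the members. Of 21 cofactor genes, 20 reached 1 FPKM and 15 the top quartile, with a median of 35.9 FPKM against 6.32 for the 9 members. Ehmt2, the H3K9 methyltransferase G9a, stood at 154.6 ± 17.4 FPKM, the deacetylase Hdac2 at 104.2 and Wdr77, the partner of Prmt5, at 76.1. Prmt5 itself was at 40.6 ± 6.25 FPKM. The partner of Prdm8, Bhlhe22, was at 0.435 FPKM, below 1 FPKM but above Prdm8, at 0.0733 FPKM. Of the 21, 20 passed the F test, against 58.2% of all genes tested, and 11 were highest in 444wt, against 36.3%. Of the 14348 genes of at least 1 FPKM, tested alone, 11136 passed.

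Prdm1 and Prdm14 were low in the same libraries where many genes of the network they act with in the embryo were not. Bulk RNA of a mixed preparation cannot place these genes in the same cells as Prdm1 and Prdm14. Of the other 14 genes of that network, 11 reached 1 FPKM, with a median of 7.25. The highest were Kit at 45.2 ± 9.38, Lin28a at 39.8 ± 9.81 and Klf4 at 34.0 ± 8.53 FPKM (SD, n = 4). Kit was also counted among the spermatogonia markers. Those below 1 FPKM were the pluripotency genes Esrrb at 0.891, Nanog at 0.226 and Sox2 at 0.146 FPKM. Nanog and Sox2 were thus lower than Prdm1, at 0.453 FPKM. Of these 14, 11 passed the F test, against 58.2% of all genes tested, and 11 were highest in 444wt, against 36.3%. Of the 14348 genes of at least 1 FPKM, tested alone, 11136 passed, so that the share that passed is close to this background. Prdm1 had its lowest value in 444wt, but did not pass there against 186wt (limma adjusted p = 0.384) or 343wt (limma adjusted p = 0.126). Of the 8 genes of the circuit of Prdm1 in B cells, 4 reached 1 FPKM, led by Xbp1 at 40.5 ± 4.83, while Pax5 was at 0.0517 FPKM.

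The profiles of the 3 members with the largest span were compared with those of all listed genes, as the root mean square of the differences between profiles over the 4 numbers after each was centred. Nearest to Prdm1 were Prdm6 (0.09 log2), Tek (0.16) and Id4 (0.18). Among the 3 nearest to Prdm8 were Ciita (0.14) and Myc (0.19), and nearest to Prdm14 were Ctbp2 (0.12), Myc (0.12) and Tet1 (0.14). With 4 points per profile and so few fragments for Prdm8 and Prdm14, these are descriptions.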

How the data were processed

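RNA was measured in 12 libraries of enriched germ cells; the ChIP-seq and Affinity-seq samples of the series were not analysed here. Per the methods and the submitters' processing notes, the authors aligned 100-base paired reads to the NCBI build 37 (mm9) transcriptome with Bowtie 0.12.9 and quantified them with RSEM 1.2.8, and deposited FPKM with 2 decimals. BWA, MACS and bedtools are also noted. RSEM shares reads between similar transcripts.

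The 3 libraries of a sample number were averaged for levels and entered limma singly. Genes averaging at least 0.1 FPKM were tested as log2(FPKM + 0.1) with limma 3.58.1 (R 4.3.3, trend), as an F test over the 4 numbers and in 6 contrasts, with Benjamini-Hochberg adjustment over all genes tested. Neighbouring levels were compared by exact sign-flip tests. Fragments were estimated from steps of low values in 8207 single-transcript genes of 350 to 1200 bases. Genes named from the lists were among the 3 highest or at 0, except Prmt5, Bhlhe22 and Pax5, named after their values were seen, and 1 listed gene is not reported here. The fragment estimate and the limma fit were tested on simulated data. Alternatives covered pseudocounts, filters, rescaling, TPM, a replicate block and left-out libraries and numbers. The members and lists were chosen with earlier results of these data known. Python 3.11.15, scipy 1.17.1 and matplotlib 3.10.9 were used.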

Additional observations from a re-analysis of the deposited data

Results flagged for a closer look

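Of 32 values compared over the 4 sample numbers, 2 had 1 number far from the others (the gap over the range above Dixon's 95% critical value of 0.829), where chance gives about 1.6. Mecom was at 0.867 FPKM in 456wt, against 0.403 to 0.420 in the other 3 numbers (ratio 0.964). The median of the spermatid markers was 0.208 FPKM in 444wt, against 0.075 to 0.0883 in the others (ratio 0.9).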

How the results depend on the processing

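Of 7 alternatives, only a common total per library (TPM) moved the median of the 9 members by more than the spread between numbers, from 6.32 to 13.1, and on this larger scale 9 rather than 7 members reached 0.1. Leaving out 1 library or 1 sample number left between 1 and 5 members called by the F test, against 4, and only the omission of 444wt took it to 1 (Prdm4). With libraries rescaled to the same median, the difference of Prdm2 between 444wt and 343wt reversed to -0.0011 log2. With a replicate block, 3 members and 11774 genes were called, against 4 and 12107, since Prdm11 was lost (limma adjusted p = 0.0693), and 13 of the 42 pairwise tests passed, against 14. The replicate numbers did not pair the libraries (r of same-numbered libraries -0.065 to 0.128, of others -0.128 to 0.0835). Without any filter Prdm14 (limma adjusted p = 0.051) and Prdm8 (0.149) were tested too, and neither was called by the F test. In that setting 16 pairwise tests of members passed, against 14. At a median of 15.1 M fragments per library, differences in Prdm8 and Prdm14 rest on 40 and 29 estimated fragments in all.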
